A study of Mus musculus with 12 samples.

Results

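The 6 wild-type libraries of primary mouse embryonic fibroblasts, of 12 libraries in the series, were described for what these cells express and for which autosomal genes differ most between libraries of a single genotype. They are the columns of the deposited count table whose names carry WT: Female_WT 1, 2 and 3 and Male_WT 1, 2 and 3, all of the C57BL6 strain and all with the SIRT7 genotype given as WT. RNA was extracted with TRIZOL, selected for polyA and sequenced by an outside provider. The other 6 libraries, from SIRT7-KO fibroblasts, enter only where the spread of the same genes is given in libraries that the choice of genes did not use. No treatment, passage number or embryonic age is stated in the labels. Nothing states that the 3 libraries of a group came from separate embryos, so the spread between libraries may be biological or technical. SIRT7 is a deacylase of the sirtuin family; the design set its loss against wild type in female and male cells, and only the wild-type cells are described.

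Mouse embryonic fibroblasts are grown by dissociating the body of a midgestation embryo and letting the adherent cells expand on plastic. The cultures are mostly mesenchymal cells that secrete interstitial matrix, chiefly type I collagen and fibronectin, and that anchor to it through integrins and contractile actin bundles. Because they are taken from many regions at once, they carry the Hox codes of several body levels, and the starting tissue also holds muscle precursors, cartilage, mesothelium, blood-derived macrophages and neural crest derivatives. They express the imprinted growth genes of the embryo, and with time in culture they leave the cell cycle through the p53 and p16 pathways.

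Library totals ran from 43300393 to 45761169 counts. Levels are given as counts per 1000000 counts (CPM), scaled by the trimmed mean of M-values, and where genes are set against each other, as CPM per kilobase of exon. Of 24421 genes listed, 12187 (49.9%) reached 1 CPM in all 6 libraries and are called detected, and 4218 had 0 counts in all 6. Xist had 23874 to 29505 counts in the Female_WT libraries and 58 to 80 in the Male_WT libraries, which matches the labels, and Sirt7 was present in all 6 at 25.1 to 34.6 CPM with a median of 27.1. Male_WT 3 stood apart. It lay at -55.1 on the first principal component, which held 46.9% of the variance, while the other 5 libraries lay between 1.62 and 22.5. Pearson's r of log2 CPM between libraries, a description across genes, was 0.950 to 0.988 over all pairs and 0.972 to 0.988 without Male_WT 3, so the main counts on spread are given with and without it.

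Per kilobase, the most abundant transcripts were those of contractile filaments, of the cell's cortex and of the secreted matrix. Acta2, smooth muscle actin, ranked first at 1074 ± 156 CPM per kilobase (SD, n = 6), followed by Actb, cytoplasmic actin, at 1022 ± 100.3. The 2 did not differ beyond their spread over libraries: Acta2 spanned 835 to 1288 CPM per kilobase and Actb 879 to 1129.5. Next came Bgn, the small proteoglycan biglycan, at 947 ± 88.9, and Lgals1, the lectin galectin-1, at 919.9 ± 106. S100a11, a calcium-binding protein, stood at 863 ± 124 CPM per kilobase and Vim, the intermediate filament vimentin, at 854 ± 89.8. The translation factor Eef1a1 was at 800.5 ± 78.2, and its level is uncertain because it has near-identical processed copies in the genome.

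The imprinted non-coding RNA H19 was the only transcript among these 20 with an SD of log2 CPM above 0.5. H19 (chr7:142575529-142578143, GRCm38) had 2215, 1797, 1866, 1517, 1809 and 792 CPM in Female_WT 1, 2 and 3 and Male_WT 1, 2 and 3. The 5 other libraries held between 1517 and 2215 CPM, and Male_WT 3 lay below all of them. Its SD of log2 CPM was 0.52 over 6 libraries and 0.19 without Male_WT 3. The contractile and adhesion genes Tagln (728 ± 114), Myl9 (625 ± 81.1) and Anxa2 (641 ± 46.01 CPM per kilobase) filled further places. The matrix genes Thbs1 (686 ± 76.03), Sparc (671 ± 84.9), Fn1 (623 ± 92.9), Col1a1 (592 ± 121) and Col1a2 (556 ± 100.1 CPM per kilobase) did the same. Hsp90ab1, a chaperone, stood at 647 ± 57.8 and the ribosomal protein gene Rps15 at 568 ± 46.6 CPM per kilobase. The entry Mir682, 96 bases long, reached 793 ± 61.9 CPM per kilobase from 65.9 to 83.4 CPM. It lies inside a processed pseudogene, so its reads were not taken as those of a microRNA.

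**Figure D1:**
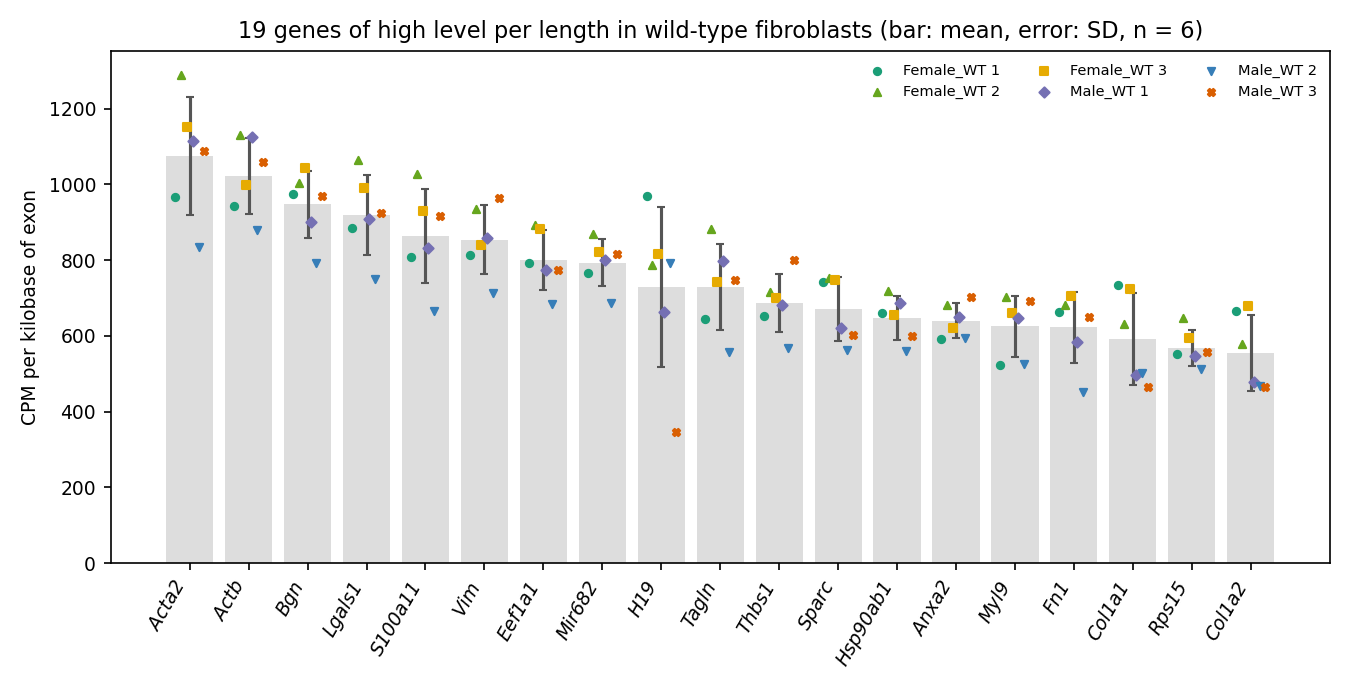
CPM per kilobase of exon (vertical axis) for 19 of the 20 genes of highest mean level in wild-type fibroblasts; bars are means, error bars SDs and points the 6 libraries. Acta2 and Actb lead at 1074 and 1022 CPM per kilobase, and the Male_WT 3 point of H19 lies below its other 5 points.

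By counts alone, without regard to length, 5 genes led. Fn1, fibronectin, held 3836 to 5977 CPM with a median of 5574, and Thbs1, thrombospondin-1, 3329 to 4678 CPM with a median of 4039. Col1a1 and Col1a2, the chains of type I collagen, held 2753 to 4359 CPM with a median of 3365 and 2484 to 3636 CPM with a median of 2826, and Flna, the X-linked actin crosslinker filamin A, 2838 to 3209 CPM with a median of 3042. Flna was the steadiest of them, with an SD of log2 CPM of 0.07, against 0.29 for Col1a1 and 0.24 for Fn1. No single gene dominated a library. The 10 most abundant genes took 2.63% to 3.34% of a library's counts and the 100 most abundant 12.2% to 13.7%.

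Matrix genes, 199 genes in 10 lists of collagens, glycoproteins, proteoglycans, processing enzymes, proteases, inhibitors and integrins, made up 0.815% of the genes listed and 7.41 ± 0.689% of all counts (SD, n = 6, range 6.61% to 8.10%). Of them 172 were detected, beside 49.9% of all genes. They supplied 31 of the 100 genes with the most counts and 18 of the 100 of highest level per kilobase. The first of these counts favours long transcripts and the second does not.

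All 11 fibrillar collagen genes were detected. Col1a1 and Col1a2 stood at 592 and 556 CPM per kilobase, Col5a2 and Col3a1 at 271 and 264, and Col5a1 at 242. Type III and type V collagens assemble into the same fibrils as type I. Col1a1 read 4359, 3749, 4290.0, 2942, 2982 and 2753 CPM over Female_WT 1, 2 and 3 and Male_WT 1, 2 and 3. Its SD of log2 CPM was 0.29 over the 6 libraries and 0.27 without Male_WT 3. Col3a1 ran from 813 to 2131 CPM, lowest in Male_WT 3, with an SD of 0.50 and 0.35 without that library. The cartilage collagen Col2a1 was detected too, at 38.4 to 362 CPM with a median of 155, highest in Female_WT 1 and lowest in Male_WT 2. A gene is called variable here when its SD of log2 CPM exceeds 0.5, which held for 1562 of 12508 autosomal genes at a mean of 1 CPM or more (12.5%), and for 1122 of 12486 (8.99%) without Male_WT 3. By that measure 6 of 11 fibrillar collagens were variable, and 5 without Male_WT 3, and their median SD was 0.54 beside 0.18 over all genes, and 0.35 beside 0.15 without that library. The shares of 12.5% and 8.99% also stand beside the counts of variable genes in the lists below. Between 1 and 10 CPM the share over 6 libraries was 34.6%.

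Of the 27 other collagen genes, 19 were detected. Col12a1, a collagen that decorates type I fibrils, had 1399 to 2336 CPM with a median of 1849.5. The basement membrane chains Col4a1 and Col4a2 lie head to head on chromosome 8 and share a promoter region, and they ranged over 1129 to 1724 CPM and 816 to 1292 CPM. Col6a1 and Col6a3, of the beaded filaments around cells, spanned 519 to 1217 CPM and 605 to 1477 CPM, both lowest in Male_WT 3. 13 of 22 members were variable, with a median SD of 0.63, and 12 without Male_WT 3, with a median of 0.51. The widest were cartilage collagens: Col9a1 had 9.502 CPM in Female_WT 1 and at most 0.796 in the other 5, and Col9a2 had 8.26 CPM there and at most 2.81 elsewhere. In Female_WT 1 14 of 22 members of this list had their highest value, beside 13.1% of all autosomal genes at 1 CPM.

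Among the glycoproteins that cells bind and that regulate matrix assembly, all 20 had a mean of 1 CPM or more and 18 were detected. Per kilobase Thbs1, Sparc and Fn1 led at 686, 671 and 623, ahead of the CCN protein Cyr61 at 361, Tnc, tenascin-C, at 312 and Fstl1 at 292. Their SDs of log2 CPM were all under the threshold, 0.16 for Thbs1, 0.14 for Cyr61 and 0.31 for Tnc. Postn, periostin, an integrin ligand of collagen-rich tissue, was abundant and variable at once: 1048, 998, 1239, 504, 1130.4 and 263 CPM over the libraries in the order above. Male_WT 3 was lowest and Male_WT 1 next. Its SD was 0.88, and 0.52 without Male_WT 3. Nov, a CCN family protein, ranged over 14.4 to 96.7 CPM, highest in Male_WT 2. In this list 9 of 20 were variable, 6 without Male_WT 3.

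Proteoglycans carry glycosaminoglycan chains and bind collagen, hyaluronan or growth factors. Of 26 genes 21 were detected. Bgn led per kilobase at 947. The other abundant members stood at 104 for the hyaluronan receptor Cd44, 80.3 for the syndecan Sdc3, 68.1 for versican (Vcan) and 50.4 for glypican-1 (Gpc1). The small leucine-rich proteoglycans decorin and lumican, neighbours on chromosome 10, followed another pattern. Dcn (chr10:97479609-97518143) read 102, 57.3, 43.6, 27.2, 141 and 7.09 CPM and Lum (chr10:97565128-97572703) 85.2, 20.4, 18.1, 6.37, 42.3 and 1.35 CPM, in the order Female_WT 1, 2 and 3 and Male_WT 1, 2 and 3. Both were lowest in Male_WT 3 and high in Female_WT 1 and Male_WT 2. Dcn differed 19.9-fold and Lum 63.3-fold between the extreme libraries, and 141 against 27.2 CPM of Dcn remained between the extremes of the other 5. Prelp, of the same protein family, ranged over 9.95 to 79.4 CPM with its 2 highest values in the same pair of libraries. 9 of 19 proteoglycans on autosomes were variable, 10 without Male_WT 3.

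All 17 genes of elastic fibres and microfibrils were detected. Fibrillin-1 (Fbn1), the backbone of microfibrils, had 905 to 1478 CPM with a median of 1184, and Fbln2 and Ltbp1, which bind to it, 927 to 1372 CPM and 662 to 1046 CPM. Elastin itself varied most. Eln (chr5:134702593-134747323) read 269, 152, 159, 49.9, 174 and 18.9 CPM, lowest in Male_WT 3 and highest in Female_WT 1, with an SD of 1.43, and 0.90 without Male_WT 3. Mfap4, an elastic fibre protein, read 163, 103, 144, 42.5, 165 and 26.04 CPM and had its 2 lowest values in the same libraries as Eln, Male_WT 1 and Male_WT 3. Efemp1 was highest in Male_WT 3 at 152 CPM against 35.05 to 89.3 in the others. The list held 5 of 17 variable genes and a median SD of 0.33, and 5 variable genes and a median of 0.25 without Male_WT 3.

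Basement membrane laminins and nidogens had a median SD of 0.27, and 0.27 without Male_WT 3, with 4 of 14 variable, 3 without it. Of 15 genes 13 were detected. Perlecan (Hspg2) had 995 to 1233 CPM with a median of 1060.2 and nidogen-1 (Nid1) 954 to 1122 CPM with a median of 999, with SDs of log2 CPM of 0.13 and 0.09. The laminin chains Lamb1 and Lamc1 stood at 72.8 and 70.8 CPM per kilobase, and the mesenchymal alpha chain Lama4 at 33.6. Lama4 varied most among those above 10 CPM, from 91.4 CPM in Male_WT 3 to 317 in Male_WT 2.

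Genes for folding, processing and crosslinking collagen were all detected, 26 of 26, with a median SD of 0.17. The collagen chaperone Serpinh1 stood at 482 ± 60.8 CPM per kilobase, the prolyl hydroxylase subunit P4hb at 328 ± 29.4 and lysyl oxidase, Lox, at 271 ± 29.1. Of 26 members 3 were variable (11.5%), Loxl4, Adamts2 and Adamts3, a share near the 12.5% of all autosomal genes at 1 CPM. None was variable without Male_WT 3, beside 8.99%. Adamts2, a procollagen N-proteinase, had 34.5 CPM in Male_WT 3 and 75.6 to 128 in the other 5. Set side by side, the median SD was 0.54 for the fibrillar collagens and 0.17 for the genes that process them, beside 0.18 over all autosomal genes. Without Male_WT 3 the medians were 0.35 and 0.17, beside 0.15, a description with no test.

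Matrix proteases were 22 of 27 detected. The membrane-anchored collagenase Mmp14 led per kilobase at 129.6, with 487 to 602 CPM over the libraries, and the gelatinase Mmp2 stood at 76.9 CPM per kilobase. Those of largest SD were secreted proteases at low level: Mmp3 (stromelysin-1), Mmp10, Mmp12 and Mmp13, which lie together on chromosome 9. Mmp3 read 20.8, 23.2, 13.9, 14.5, 9.72 and 1.08 CPM, and Male_WT 3 lay below all others. Without it the SD of Mmp3 was 0.50, just under the threshold. Mmp12, a macrophage elastase, was high where Mmp3 was low, with 5.57 and 5.03 CPM in Male_WT 3 and Male_WT 2 and 0.437 in Female_WT 1. Macrophage markers were highest in Male_WT 3 and Male_WT 2 too, Lyz2 at 49.5 and 33.5 CPM, and their part in the Mmp12 values was not tested.

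Protease inhibitors were abundant: 9 of 11 were detected, and Timp1, an inhibitor of matrix metalloproteinases, and Serpinf1, the secreted factor PEDF, stood at 368 and 263 CPM per kilobase. Of 19 integrin genes 16 were detected. Itgb1, the common beta chain, stood at 351 CPM per kilobase, and Itga5, which pairs with it as the fibronectin receptor, at 187. The alpha chain Itgav was among the steadiest at 311 to 382 CPM. Itga4 was the most variable integrin above 10 CPM, from 23.3 CPM in Male_WT 3 to 71.6 in Male_WT 1.

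All 33 genes of the actin cytoskeleton and contractile list were detected, with a median SD of 0.14. Beside Acta2 and Actb, the non-muscle myosin heavy chain Myh9 had 2071 to 2496 CPM with a median of 2411 and caldesmon (Cald1) 1456 to 1836 CPM with a median of 1722. In this list 22 of 31 autosomal members had their lowest value in Male_WT 2, beside 19.1% of all genes, and 19 their highest in Female_WT 2, beside 14.1%. The pattern was not particular to this list. Of 75 autosomal ribosomal protein genes 37 were lowest in Male_WT 2 and 43 highest in Female_WT 2. Of 22 translation factors the counts were 17 and 12. These 2 libraries also had the extreme scaling factors of the wild-type libraries, 0.969 for Female_WT 2 and 1.04 for Male_WT 2. The counts were not recomputed with another scaling, and the part of scaling in them was not tested. A list's score is the mean log2 deviation of its members at 1 CPM or more from their own means. X-linked members were included. For the actin list it was -0.10, 0.15, 0.08, 0.14, -0.24 and -0.03 in Female_WT 1, 2 and 3 and Male_WT 1, 2 and 3. The 3 variable members were muscle isoforms: Actc1 and Acta1, the actins of heart and skeletal muscle, and Myh11, the smooth muscle myosin, with 13.4 to 105 CPM, 31.8 to 138 CPM and 75.4 to 310.1 CPM.

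The CArG box, the site that serum response factor binds, was found by letters in the promoters of 7 of 28 list members present in the RefSeq promoter table (GRCm38.p6, windows of 300 bases around the start, both strands), or 7 of 33 promoters (21.2%), against 1.63% of all 32851 promoters in that table. A match is a description of letters and shows no binding. The example shown is the 250 bases before the start of Vcl, the focal adhesion protein vinculin, at chr14:20929148-20929397 on the plus strand, with the CArG box in capitals beginning 227 bases before the start. Vcl was chosen as the member of highest mean CPM, 1126, among those with a single promoter entry and a match in these 250 bases.
Vcl: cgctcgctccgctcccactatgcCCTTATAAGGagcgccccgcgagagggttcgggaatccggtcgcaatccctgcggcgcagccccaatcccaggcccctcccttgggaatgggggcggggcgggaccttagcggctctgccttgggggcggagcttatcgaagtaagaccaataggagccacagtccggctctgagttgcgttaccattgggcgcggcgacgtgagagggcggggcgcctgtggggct

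Among intermediate filaments and lamins 11 of 19 were detected. Vimentin held 1563 to 2115 CPM with a median of 1864, the lamin gene Lmna 505 to 557 CPM with a median of 546 and nestin (Nes), a filament of progenitor cells, 177 to 416 CPM. Desmin (Des), of muscle and pericytes, ranged over 72.05 to 295 CPM, lowest in Male_WT 3. The epithelial keratins Krt8 and Krt18 shared their lowest library and no other order: Krt8 read 4.81, 9.96, 3.63, 7.06, 11.6 and 0.471 CPM and Krt18 15.5, 42.5, 29.7, 42.9, 25.9 and 7.92 CPM, both lowest in Male_WT 3. Krt19 and Krt7, keratins of the same list, were highest there, at 76.2 and 25.1 CPM.

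The labelled cell type was checked against its markers. Of 33 fibroblast and mesenchyme markers 29 were detected, with a summed level of 4358 to 6036 CPM. The defining markers were all well above 1 CPM in all 6 libraries. The surface protein Thy1 had 487 to 943 CPM with a median of 732, the limb and craniofacial mesenchyme factor Prrx1 507 to 637 CPM with a median of 608, the mesenchymal transcription factor Twist1 67.5 to 84.4 CPM with a median of 76.1, and the receptor Pdgfrb 279.9 to 605 CPM with a median of 498. The second PDGF receptor, Pdgfra, was less even: 229, 129.7, 136, 86.2, 344 and 39.9 CPM, lowest in Male_WT 3 and highest in Male_WT 2, with an SD of 1.08 against 0.12 for Prrx1. The adhesion molecule Cdh11 spanned 454 to 937 CPM. Mdk, the growth factor midkine, had 7.32 CPM in Male_WT 3 and 38.8 to 66.3 in the other 5. Male_WT 3 held the lowest value for 19 of 32 markers, beside 29.7% of all autosomal genes, and 12 of 32 markers were variable, 10 without it.

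Markers of early lineages were mostly undetected. Of 15 pluripotency genes only Klf4, which fibroblasts also express, was detected, at 70.2 to 121 CPM. Pou5f1 had 0 counts in all 6 libraries, which allows up to 3 counts in each. Nanog had 0.655 to 1.05 CPM and Sox2 0.754 to 5.43 CPM. None of 13 germ cell genes was detected; Ddx4, the highest, had 0.0898 to 3.08 CPM and Dazl 0 to 0.0442 CPM. Of 16 erythroid genes 1 was detected, Slc4a1, at 1.02 to 1.95 CPM. 7 globin genes had 0 counts in all 6 libraries, and because several globin genes have near-identical copies this count is uncertain.

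Of 214 genes marking other cell types that a dissociated embryo can carry, 92 were detected, which as a share is below the 49.9% of all genes, and 9 had 0 counts in all 6 libraries. In bulk RNA, fewer cells of a type and less RNA per cell cannot be told apart. Skeletal muscle genes stood out by their range. Myog, the myogenin that drives myoblasts into differentiation (chr1:134289989-134292548), read 15.6, 3.14, 21.5, 20.5, 15.8 and 0.314 CPM, and Myod1, the myogenic determination factor, 5.55, 0.638, 6.37, 7.48, 5.19 and 0.0898 CPM, in the order Female_WT 1, 2 and 3 and Male_WT 1, 2 and 3. Both were lowest in Male_WT 3, at 14 and 4 counts, and next lowest in Female_WT 2. The embryonic myosin Myh3 (chr11:67078300-67102291) followed with 86.96, 12.5, 87.03, 99.7, 34.3 and 0.673 CPM. Myl1, the fast light chain, had 2 counts in Male_WT 3, under the floor of 3, and 4.06 to 18.5 CPM in the other 5. Tnni1 and Mylpf, a troponin and a light chain, spanned 0.359 to 26.9 CPM and 0.965 to 25.4 CPM. The satellite cell marker Pax7 was at most 0.232 CPM and at 0 counts in Female_WT 1 and 2. Of 22 muscle genes 18 had a mean of 1 CPM, and 17 of those were variable, 15 without Male_WT 3. In that library 15 of the 18 were lowest and 1 highest, beside 29.7% and 28.0% of all genes. The list summed to 248 CPM there and to 423 to 711 CPM in the other 5. Acta1, the skeletal muscle actin, went the other way, highest in Male_WT 3 at 138 CPM and lowest in Male_WT 2 at 31.8. Genes between 1 and 10 CPM vary more in general, and 34.6% of such autosomal genes were variable.

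Macrophage and blood cell genes had another order. Lyz2, the lysozyme of macrophages (chr10:117277331-117282321), read 7.43, 20.4, 1.59, 2.72, 33.5 and 49.5 CPM, and Mpeg1, macrophage perforin, 2.58, 9.25, 1.37, 1.95, 10.4 and 14.7 CPM. Cd68 and Csf1r, defining markers, spanned 6.9004 to 24.2 CPM and 2.92 to 10.7 CPM, Adgre1 0.354 to 5.196 CPM, and Ptprc only 0.664 to 2.06 CPM. Reads of Lyz2 can be shared with its close copy Lyz1. Male_WT 3, Male_WT 2 and Female_WT 2 were the 3 highest libraries for Lyz2, and Female_WT 3 the lowest. For 13 of 17 members Male_WT 3 held the highest value, beside 28.0% of all genes, and for 15 Female_WT 3 held the lowest, beside 10.2%. Summed, the list ran from 25.5 CPM in Female_WT 3 to 149.6 in Male_WT 3.

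Several mesothelial genes, of the lining of the body cavities, were highest in Male_WT 2 and Female_WT 1. Wt1 read 13.2, 13.1, 6.77, 7.53, 31.6 and 2.02 CPM, Lrrn4 20.8, 13.1, 3.72, 2.695, 30.9 and 1.21 CPM and Upk3b 16.6, 12.6, 7.76, 3.602, 22.1 and 1.39 CPM, and all 3 were lowest in Male_WT 3. Msln did not follow them, at 7.79 to 14.8 CPM with an SD of 0.30. 8 of 10 members were lowest in Male_WT 3, beside 29.7% of all genes. Cartilage genes were led by Female_WT 1, which held the highest value of 11 of 13 chondrocyte markers, beside 13.1% of all genes. There Hapln1 had 41.2 CPM against at most 14.8 elsewhere, and the list's scores were 1.504, -0.19, -0.06, -0.38, -0.44 and -0.44 in Female_WT 1, 2 and 3 and Male_WT 1, 2 and 3. The cartilage factor Sox9 was less uneven at 14.6 to 42.3 CPM. Acan, aggrecan, was out of step with Col2a1: in Male_WT 3 Acan was lowest at 8.53 CPM while Col2a1 was at 189.

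Glial and neural crest genes were highest in Male_WT 3 for 8 of 12 members, beside 28.0% of all genes. Sox10, the factor of neural crest and glia, read 9.502, 2.96, 4.6003, 3.02, 3.69 and 16.9 CPM, highest in Male_WT 3. Ngfr had 52.4 CPM in Male_WT 3 and 6.97 to 23.04 in the others. Adipocyte genes were highest in Male_WT 2 for 6 of 6 members, beside 17.9% of all genes. Lpl, lipoprotein lipase, had 108 CPM there and at most 43.5 elsewhere. The mature adipocyte markers Adipoq and Plin1 reached 1.298 and 1.07 CPM in Male_WT 2 and at most 0.0697 and 0.0442 in the other 5.

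Other lists were low or shared with fibroblasts. Of 16 endothelial genes 6 were detected, led by Flt1 at 124 to 230.3 CPM, while the defining markers Pecam1 and Cdh5 stayed at 0.524 to 0.808 CPM and 0.906 to 1.19 CPM. Of 19 epithelial genes 3 were detected, the keratins Krt19, Krt18 and Krt7; Epcam and Cdh1 reached at most 2.12 and 1.59 CPM. Neuronal Snap25 and Rbfox3 were at most 0.302 and 0.651 CPM, although the cytoskeletal genes Map2 and Tubb3 spanned 48.9 to 98.1 CPM and 29.8 to 78.4 CPM. Of 14 pericyte and smooth muscle genes, many of which contractile fibroblasts also express, 13 were detected. Among osteoblast genes Runx2 was even at 71.96 to 94.4 CPM and the secreted Spp1 ranged over 176 to 567 CPM. Steroid cell genes summed to 14.02 to 31.1 CPM.

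**Figure D2:**
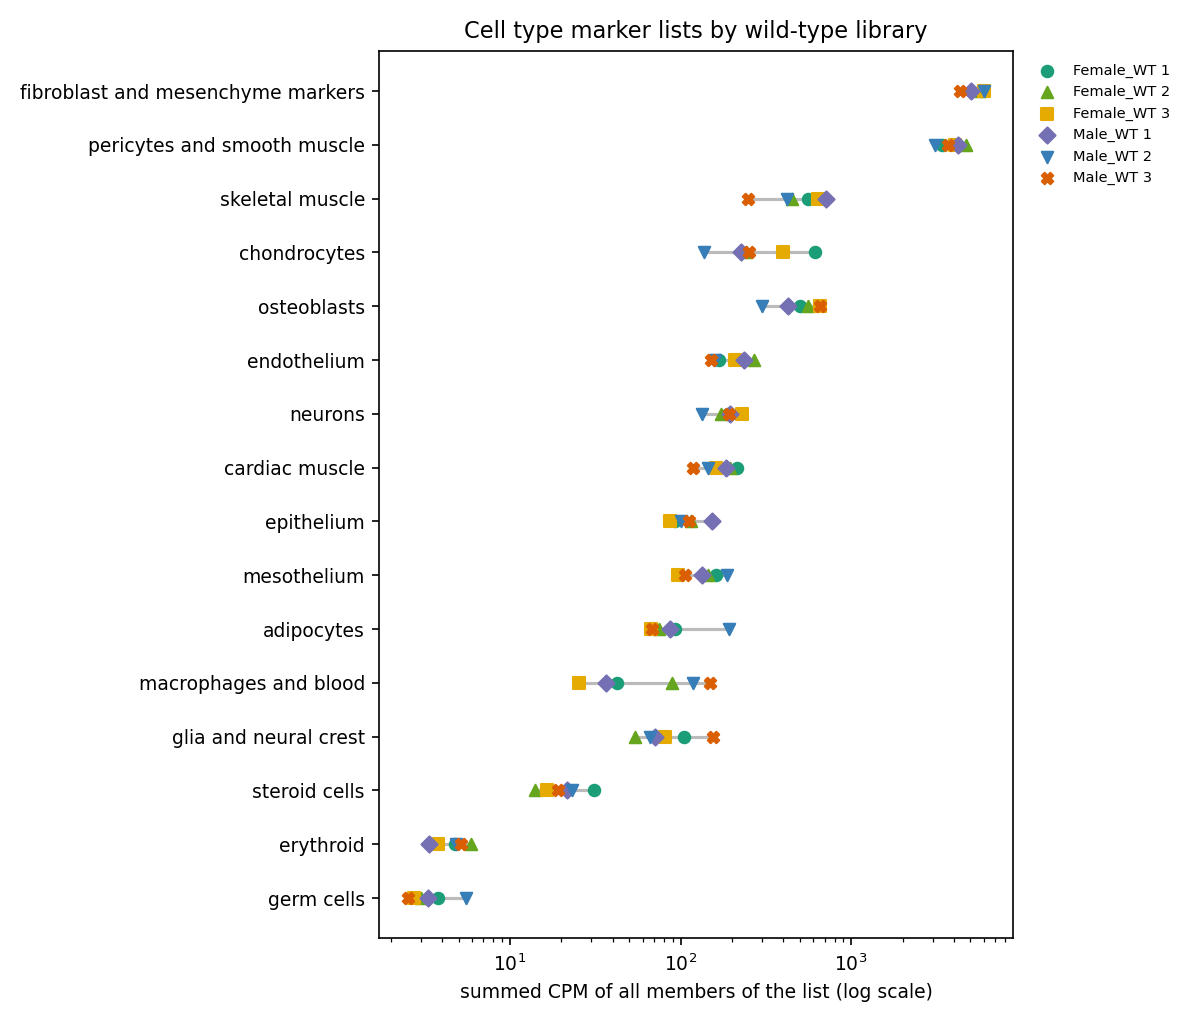
Summed CPM of all members of each cell type marker list (horizontal axis, log scale), 1 point per wild-type library. Fibroblast markers sum to 4358 to 6036 CPM, germ cell markers to 2.54 to 5.53 CPM, and the macrophage and chondrocyte lists spread most widely between libraries.

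Hox genes encode position along the body axis, low numbers toward the head and high numbers toward the tail and the ends of the limbs. All 4 clusters were on: 35 of 39 genes were detected and 37 had a mean of 1 CPM or more, with a summed level of 728 ± 91.1 CPM (SD, n = 6). Per kilobase the highest were Hoxc6 at 33.2 ± 10.7, Hoxb9 at 28.4 ± 8.53 and Hoxc8 at 28.02 ± 7.56, genes of trunk levels, then Hoxc10 at 21.8 ± 5.09 and Hoxd11 at 21.5 ± 6.83. The first 3 did not differ beyond their spread. Genes of the distal limb and tail were expressed as well: Hoxd13 read 51.3, 31.04, 24.7, 43.7, 15.4 and 15.4 CPM and Hoxa13 5.83, 3.17, 2.99, 4.65, 2.45 and 1.46 CPM, in the order Female_WT 1, 2 and 3 and Male_WT 1, 2 and 3. Not detected were Hoxb1 at 0.0874 to 0.269 CPM, Hoxd1 at 0 to 0.209 CPM, Hoxb13 at 0.293 to 2.28 CPM and Hoxc12 at 0.449 to 2.21 CPM.

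In the Hox B cluster Male_WT 3 stood apart. Hoxb8 read 20.1, 16.9, 21.01, 15.99, 14.8 and 48.3 CPM, Hoxb6 12.2, 10.1, 11.7, 11.4, 12.5 and 30.03 CPM and Hoxb7 9.17, 7.57, 8.01, 8.27, 8.21 and 16.1 CPM, and Male_WT 3 was above all others in each. In Male_WT 3 8 of 9 Hox B genes had their highest value, beside 28.0% of all genes, and the cluster's score was 0.71 there against at most -0.05 in the other 5. In Hox A the 6 genes Hoxa2 to Hoxa7 were highest in Male_WT 3, Hoxa3 at 46.5 CPM and Hoxa5 at 30.8 among them, while Hoxa10, Hoxa11 and Hoxa13 were lowest there, at 25.5, 18.3 and 1.46 CPM. In Hox C, Hoxc5, Hoxc6 and Hoxc8 were highest in Male_WT 3, at 33.6, 81.3 and 70.1 CPM, and Hoxc10 to Hoxc13 lowest, with 23.03 CPM of Hoxc10 and 2.65 of Hoxc13. In Male_WT 3 the genes of lower number were thus high and those of higher number low in these 2 clusters. The number of variable Hox genes was 15 over 6 libraries and 10 of 37 without Male_WT 3, beside 12.5% and 8.99% of all autosomal genes.

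**Figure D3:**
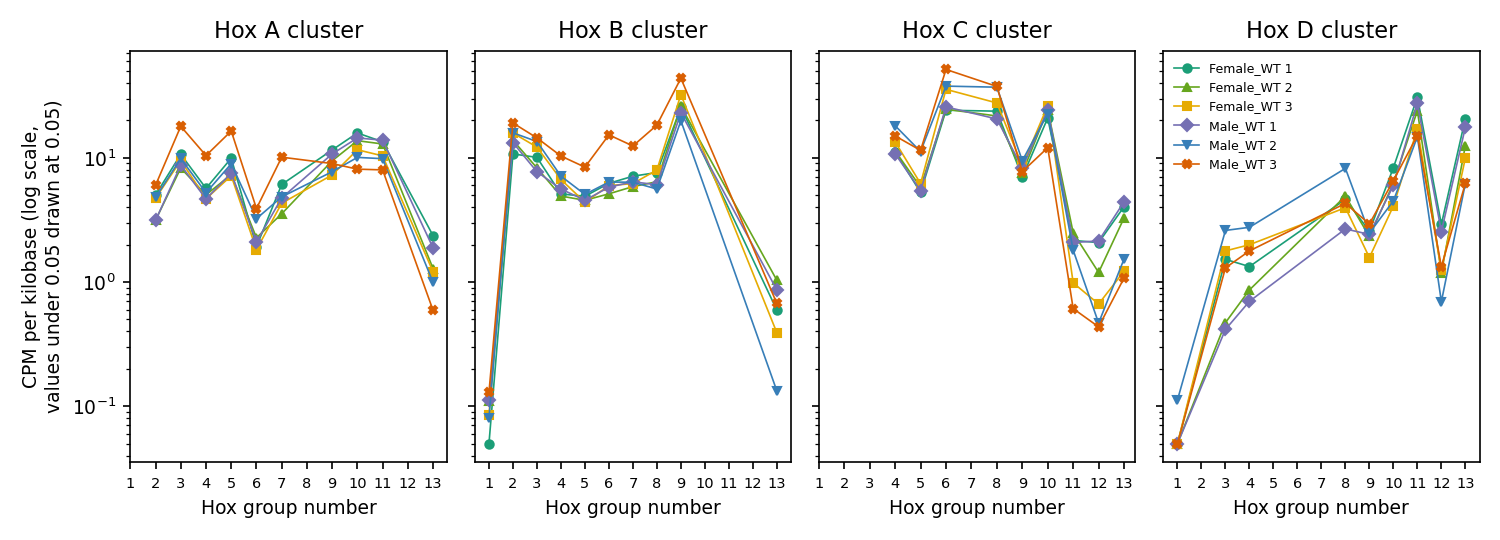
CPM per kilobase (vertical axis, log scale) of 38 Hox genes by group number, 1 panel per cluster and 1 line per wild-type library, with values under 0.05 drawn at 0.05. The Male_WT 3 line lies above the others across Hox B from group 1 to group 9 and below them at Hoxa13, Hoxc10 and Hoxc13.

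Limb and trunk position factors also differed by library. Of 40 genes 29 were detected. Tbx15 had 127 to 164 CPM with a median of 146 and Gli3, the hedgehog effector, 79.4 to 126 CPM with a median of 104. The hindlimb genes Pitx1 and Tbx4 read 33.05, 26.5, 18.3, 32.6, 23.4 and 4.09 CPM and 34.1, 17.02, 12.9, 20.98, 8.901 and 2.895 CPM, and both were lowest in Male_WT 3. Tbx5, of the forelimb and heart, was highest in Female_WT 1 at 53.9 CPM and between 21.2 and 37.5 in the others. Shox2 had 22.5 CPM in Male_WT 3 and 49.03 to 59.2 elsewhere. 20 of 35 position factors were variable, 14 without Male_WT 3, beside 12.5% and 8.99% of all autosomal genes at 1 CPM.

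Genes listed as imprinted included some of the most abundant transcripts. Whether each was expressed from a single parental copy in these cells was not measured. Of 37 genes 28 were detected. Igf2, the fetal growth factor, neighbours H19 on chromosome 7 and read 2782, 2231, 2472, 2060.1, 2151 and 1269 CPM. Like H19 it was lowest in Male_WT 3, with an SD of 0.39 over 6 libraries and 0.17 without it. Grb10, an inhibitor of growth factor receptors, was steady at 801 to 971 CPM, and so was Gnas at 721 to 888 CPM. The non-coding RNA Meg3 spanned 291 to 571 CPM, lowest in Male_WT 1. For 17 of 30 imprinted genes Male_WT 3 held the lowest value, beside 29.7% of all genes. Snrpn was listed at 0 counts in all 6 libraries; it overlaps Snurf, so its reads may be assigned there and its count is uncertain.

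Growth factor pathways were broadly expressed. Of 30 genes for PDGF, FGF, EGF and HGF ligands and receptors 27 were detected. Among ligands Hbegf had 86.7 to 219 CPM and Hgf 3.88 to 14.9 CPM; among receptors Fgfr1 had 218 to 338 CPM with a median of 294 and Egfr 157 to 239 CPM. The macrophage growth factor Csf1 was high at 548 to 997 CPM with a median of 801, and its receptor Csf1r was at 2.92 to 10.7 CPM. In the TGF-beta and BMP list 32 of 35 were detected. Its ligands Tgfb3 and Inhba stood at 148 and 47.98 CPM per kilobase, its receptors Tgfbr2 and Bmpr1a at 20.6 and 28.5, and its secreted inhibitor follistatin, Fst, at 71.3. Gdf10 was the most variable, with 5.68 and 5.15 CPM in Female_WT 1 and Male_WT 2 and at most 0.775 in the other 4.

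Wnt and hedgehog genes were 29 of 37 detected. Of 32 at 1 CPM 15 were variable, 13 without Male_WT 3, beside 12.5% and 8.99% of all autosomal genes. The ligand Wnt5a had 100.4 to 142 CPM, the receptors Fzd7 and Lrp6 103 to 151 CPM and 111 to 171 CPM, and the hedgehog transducer Smo 184 to 231 CPM with a median of 201. Secreted modulators were uneven: Sfrp1 read 191, 87.4, 69.1, 45.96, 258 and 50.9 CPM and Sfrp2 76.1, 34.002, 25.4, 41.4, 183 and 9.29 CPM. Both were highest in Male_WT 2 and next in Female_WT 1, the libraries in which Dcn and Lum were high. Among IGF genes, Igfbp3 and Igf1 had the same pair of libraries highest, while 5 of 13 members were highest in another library. Igfbp3 read 194, 76.5, 52.6, 23.4, 204 and 30.5 CPM and Igf1 51.9, 33.5, 27.6, 18.9, 62.5 and 16.9 CPM, while the receptors Igf1r and Igf2r were even at 196 to 239 CPM and 363 to 514 CPM. Igfbp5, a matrix-bound IGF binder, was lowest in Male_WT 3 at 154 CPM against 367 to 628 in the others.

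All 71 G2 and mitosis genes and all 62 S phase genes were detected. Mki67, the Ki-67 antigen, read 1004, 1086, 775, 932, 978 and 582 CPM, and Top2a, topoisomerase II alpha, 595, 645, 495, 602, 594 and 346 CPM, in the order Female_WT 1, 2 and 3 and Male_WT 1, 2 and 3. In both genes Male_WT 3 was lowest and Female_WT 3 next. Over the list, 66 of 70 autosomal genes had their lowest value in Male_WT 3, beside 29.7% of all genes, and 53 their highest in Female_WT 2, beside 14.1%. The scores were 0.13, 0.27, -0.20, 0.16, 0.10 and -0.46. S phase genes had the same lowest library: 53 of 61 were lowest in Male_WT 3 and the scores were 0.06, 0.18, -0.20, 0.18, 0.20 and -0.43. No autosomal G2 and mitosis gene and 1 S phase gene, Dscc1, exceeded an SD of 0.5. Ccnd1, cyclin D1, went the other way and was highest in Male_WT 3, at 411 CPM against 250.1 to 321.

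Promoter motifs are known for the genes of this phase: the CHR element with the letters TTTGAA and the CCAAT box. They were searched on both strands of the 300-base RefSeq windows. TTTGAA was found in 42 of 63 promoters of the G2 and mitosis list (66.7%), against 17.9% of all 32851 promoters. CCAAT was found in 47 of 63 (74.6%), against 37.4% of all. The table held 59 of the 71 genes. To place these letters, promoters of Mki67 and Top2a are shown. They belong to the members of highest level among those with a single promoter entry and a TTTGAA match in the 250 bases shown. Capitals mark TTTGAA and CCAAT on either strand, so TTCAAA and ATTGG are the same motifs read on the other strand. Mki67 is shown from chr7:135716380-135716629 and Top2a from chr11:99024190-99024439, both genes on the minus strand (GRCm38.p6, 250 bases before the start, 5′ to 3′).
Mki67: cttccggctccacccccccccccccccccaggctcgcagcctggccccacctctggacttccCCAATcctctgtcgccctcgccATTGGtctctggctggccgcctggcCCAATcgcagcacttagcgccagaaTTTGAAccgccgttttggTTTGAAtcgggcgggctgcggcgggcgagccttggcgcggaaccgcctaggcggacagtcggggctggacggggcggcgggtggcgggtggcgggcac
Top2a: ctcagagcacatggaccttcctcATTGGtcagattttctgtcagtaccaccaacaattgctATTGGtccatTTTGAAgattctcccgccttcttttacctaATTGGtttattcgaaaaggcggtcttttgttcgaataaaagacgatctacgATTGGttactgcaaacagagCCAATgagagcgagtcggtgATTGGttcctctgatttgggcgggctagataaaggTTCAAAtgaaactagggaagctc
In Mki67 the TTTGAA matches begin 116 and 98 bases before the start, and in Top2a 179 and 23. These are letters in a window and were not tested for function.

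Targets of p53 respond to DNA damage and culture stress. Of 40 genes 39 were detected. Cdkn1a, the cell cycle inhibitor p21, read 218, 268, 344, 332, 221 and 502 CPM, Mdm2, the p53 ligase, 122, 143, 186, 191, 130.1 and 292 CPM and Ccng1, cyclin G1, 365, 416, 525, 527, 419 and 821 CPM. Male_WT 3 was highest in all 3. 28 of 38 targets were highest in Male_WT 3, beside 28.0% of all genes, and the scores were -0.21, -0.19, 0.11, -0.04, -0.17 and 0.51. Trp53 itself spanned 223 to 279 CPM. Cdkn2a, which encodes p16 and p19ARF, had 37.1 CPM in Male_WT 3 and 5.59 to 11.1 in the other 5. Without Male_WT 3 the highest p53 target score was that of Female_WT 3, the library with the next lowest cell cycle scores. Whether these programmes are linked was not tested.

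The senescence and secretory inflammation list had 23 of 36 detected. Ptgs2, the inducible cyclooxygenase, read 403, 627, 634, 747, 307 and 975 CPM, and the chemokine Cxcl12 spanned 319 to 482 CPM. The list's scores were 0.13, 0.24, -0.06, -0.12, 0.04 and -0.23, with Male_WT 3 the lowest although its Ptgs2 was the highest. Of 57 interferon response genes 32 were detected (56.1%), beside 49.9% of all genes, and the median member level was 3.52 CPM. Of 40 at a mean of 1 CPM or more 22 were variable, 21 without Male_WT 3. The shares of all autosomal genes were 12.5% and 8.99%, and 34.6% between 1 and 10 CPM over 6 libraries. B2m, the light chain of class I molecules, led at 198 to 279 CPM, and the sensor Ddx58 spanned 37.6 to 66.4 CPM. Ifit1, an inducible antiviral gene, read 3.28, 5.196, 1.77, 1.93, 13.1 and 1.03 CPM and Oasl2 3.41, 3.62, 3.14, 2.42, 8.42 and 0.135 CPM. Male_WT 2 held the highest value for 24 of 40 members, beside 17.9% of all genes, and Male_WT 3 the lowest for 20, beside 29.7%. B2m did not follow, being lowest in Male_WT 2 at 198 CPM. The core of the interferon-stimulated response element, GAAA followed by 2 bases of any kind and GAAA again, was found on either strand in 25 of 51 promoters of the list (49.0%), against 3.44% of all promoters in the table. B2m is shown from chr2:122147437-122147686 on the plus strand. It had the highest level among members with a single promoter entry and a match in the 250 bases before the start. The match is in capitals 139 bases before the start.
B2m: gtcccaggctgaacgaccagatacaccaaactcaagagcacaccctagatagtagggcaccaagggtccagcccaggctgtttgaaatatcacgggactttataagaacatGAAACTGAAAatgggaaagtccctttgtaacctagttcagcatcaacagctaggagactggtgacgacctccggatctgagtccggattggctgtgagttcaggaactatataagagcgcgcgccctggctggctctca

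All 25 cholesterol synthesis genes were detected, and Female_WT 3 held the highest value for 21 of 23 autosomal members, beside 12.1% of all genes. Hmgcs1, which makes the substrate of the rate-limiting reductase, had 391 CPM there and 263 to 358 in the others. The integrated stress response genes Trib3 and Chac1 were also highest in Female_WT 3, at 39.9 and 45.4 CPM, and lowest in Male_WT 3, at 5.66 and 10.5. Chaperones of the endoplasmic reticulum were even by contrast, with Hspa5 at 783 to 981 CPM and Calr at 994 to 1236 CPM. Glycolytic genes were even as well: Pkm spanned 892 to 1183 CPM and Ldha 485 to 575 CPM. Among immediate early genes Fos read 47.6, 37.9, 58.5, 27.9, 146 and 123 CPM, high in Male_WT 2 and Male_WT 3, and Fosb 25.3, 35.9, 47.6, 30.7, 73.9 and 111 CPM with the same pair highest, while Egr1 spanned 241 to 483 CPM and was highest in Female_WT 3.

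Ribosomal protein genes, 79 in all and all detected, took 0.958 ± 0.0658% of counts (SD, n = 6). Their listed levels ran from 2.18 ± 0.326 CPM for Rps13 to 837 ± 63.4 CPM for Rpl4. Because most have processed copies that can take or void reads, levels between them are uncertain. They were steady across libraries, with a median SD of 0.12 and no variable member, as were 22 translation factors with a median SD of 0.12. All 7 sirtuins were detected. Sirt2 stood highest per kilobase at 54.8 ± 5.35, Sirt7 at 15.5 ± 1.96, Sirt6 at 12.5 ± 0.9505 and Sirt1 at 8.03 ± 0.995.

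**Figure D4:**
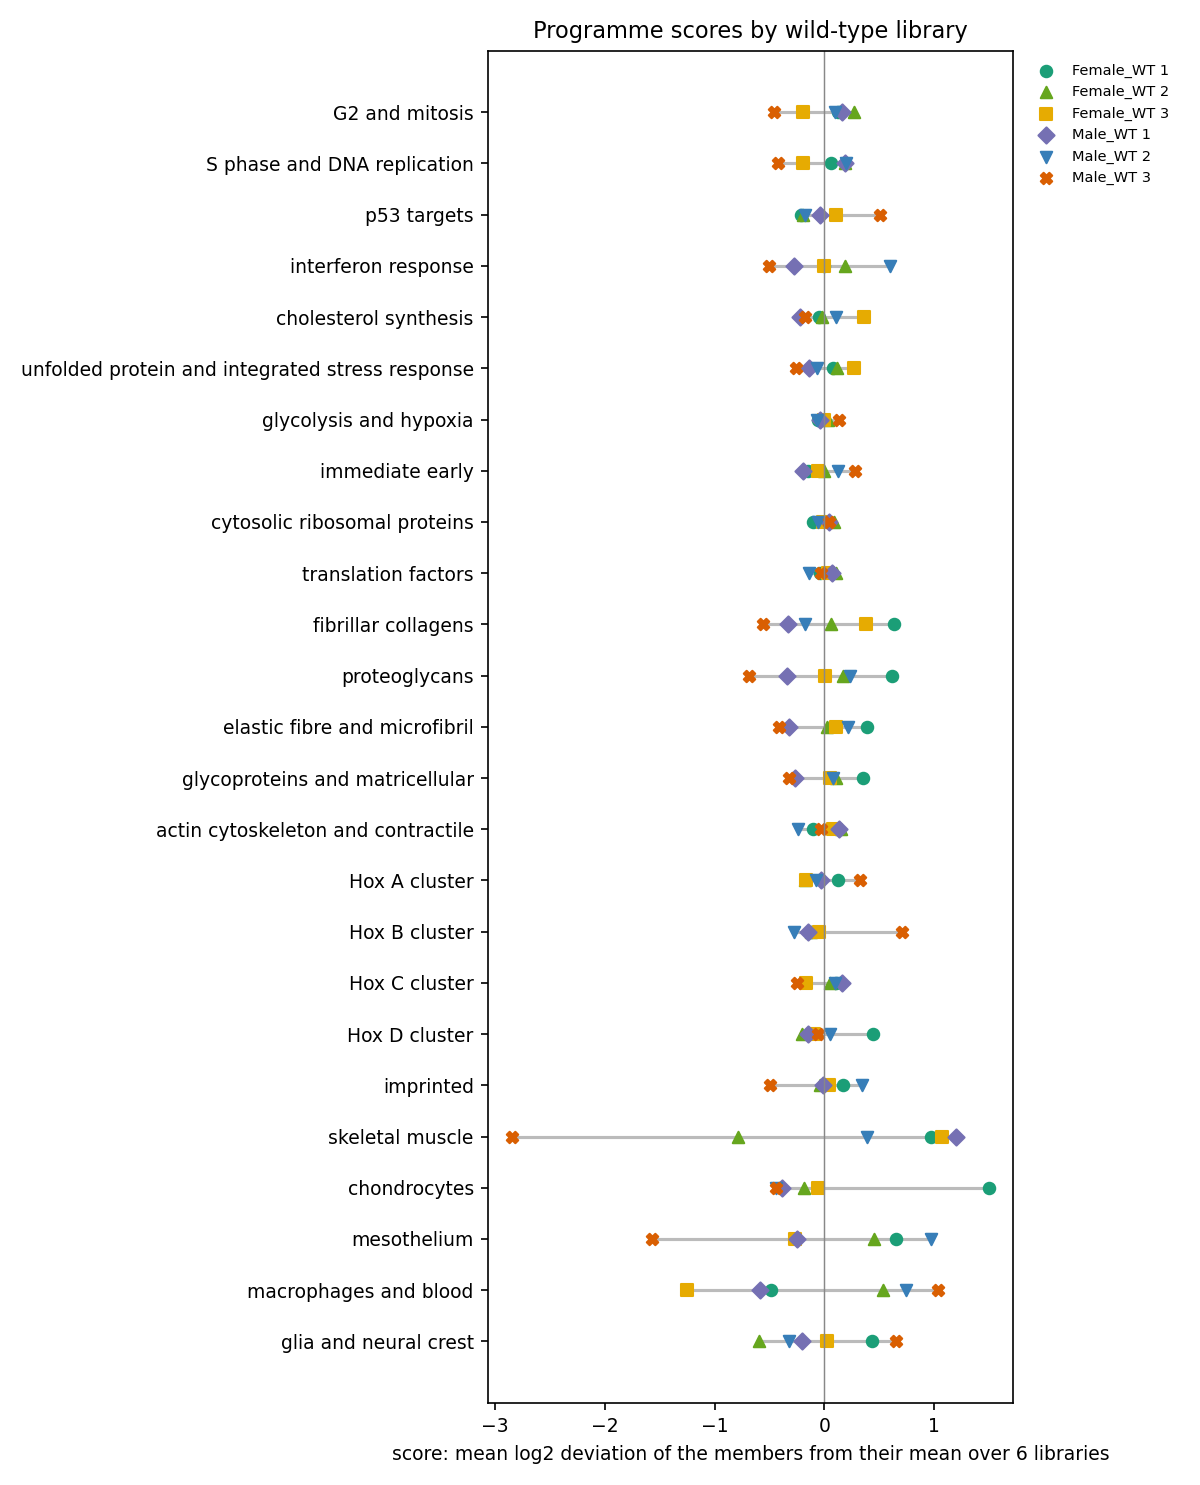
Score of each list (mean log2 deviation of its members at 1 CPM or more from their mean over 6 libraries) on the horizontal axis, 1 point per wild-type library. Male_WT 3 is lowest for skeletal muscle at -2.84, mesothelium at -1.57 and G2 and mitosis at -0.46, and highest for p53 targets at 0.51 and Hox B at 0.71; ribosomal proteins and translation factors lie near 0 in all 6.

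Across all 12508 autosomal genes at 1 CPM or more, the median SD of log2 CPM was 0.18, and 0.15 without Male_WT 3. An SD above 1 was reached by 304 genes, and by 182 without Male_WT 3. The share of variable genes depended on level. It was 34.6% of 3038 genes between 1 and 10 CPM, 6.56% of 6742 between 10 and 100 CPM and 2.53% of 2728 above. Low counts were mostly even numbers (81.4% to 89.8% of counts from 2 to 19 in a library), as when both reads of a pair are counted. With pairs taken as the unit, counting error alone gives an SD of 0.30 at 1 CPM, 0.096 at 10 CPM and 0.030 at 100 CPM. The genes nearest the threshold had SDs of 0.5003 and 0.4997. Of the 1562 variable genes 40.1% were lowest in Male_WT 3 and 26.9% highest, beside 29.7% and 28.0% of all autosomal genes at 1 CPM. Male_WT 3 took part in the choice of these genes. Of the 1562, 1034 were also among the 1122 variable without it.

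The 20 autosomal genes of largest SD at 10 CPM or more were Thbs4, Myl1, Myh3, Tnni1, Myog, Lum, Lyz2, Mylpf, Lrrn4, Tmem26, Lgr5, Ahcy, Mmp3, Dcn, Upk3b, Sfrp2, Cd59a, Eln, Heyl and Islr. 17 of them were lowest in Male_WT 3 and 2 highest there. Thbs4, a thrombospondin of tendon and muscle (chr13:92751590-92794818), had the widest range, 65.7, 21.4, 4.11, 7.76, 35.8 and 0.0898 CPM in Female_WT 1, 2 and 3 and Male_WT 1, 2 and 3. It had 4 counts in Male_WT 3, and its SD was 3.21, or 1.62 without that library. 5 were skeletal muscle genes and Lum, Dcn, Eln and Mmp3 were matrix genes, all described above. Lgr5, a receptor for R-spondins, read 23.4, 8.18, 10.9, 2.77, 49.7 and 2.69 CPM, highest in Male_WT 2. Tmem26, a membrane protein, read 62.6, 17.1, 9.86, 14.96, 44.8 and 2.02 CPM, and Islr, a secreted leucine-rich repeat protein of stromal cells, 43.5, 8.16, 8.69, 4.88, 31.5 and 3.86 CPM, both highest in Female_WT 1 and next in Male_WT 2. Heyl, a Notch target, had another order, 12.1, 32.5, 38.2, 21.1, 9.51 and 2.56 CPM, highest in Female_WT 3.

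Ahcy and Cd59a, both on chromosome 2, kept their spread without Male_WT 3. Ahcy, S-adenosylhomocysteine hydrolase (chr2:155059310-155074497), read 42.05, 27.96, 3.74, 4.37, 26.4 and 4.17 CPM. It was at or above 26.4 CPM in Female_WT 1, Female_WT 2 and Male_WT 2 and at or below 4.37 in the other 3, with no library between. Cd59a (chr2:104095801-104115354), an inhibitor of complement on the cell surface, read 7.23, 6.61, 27.7, 26.2, 5.11 and 61.7 CPM, low in the 3 libraries in which Ahcy was high. Both genes have near copies, processed ones for Ahcy and Cd59b for Cd59a, so shared reads make the levels uncertain. Without Male_WT 3 the SD of Ahcy was 1.64 and that of Cd59a 1.16.

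**Figure D5:**
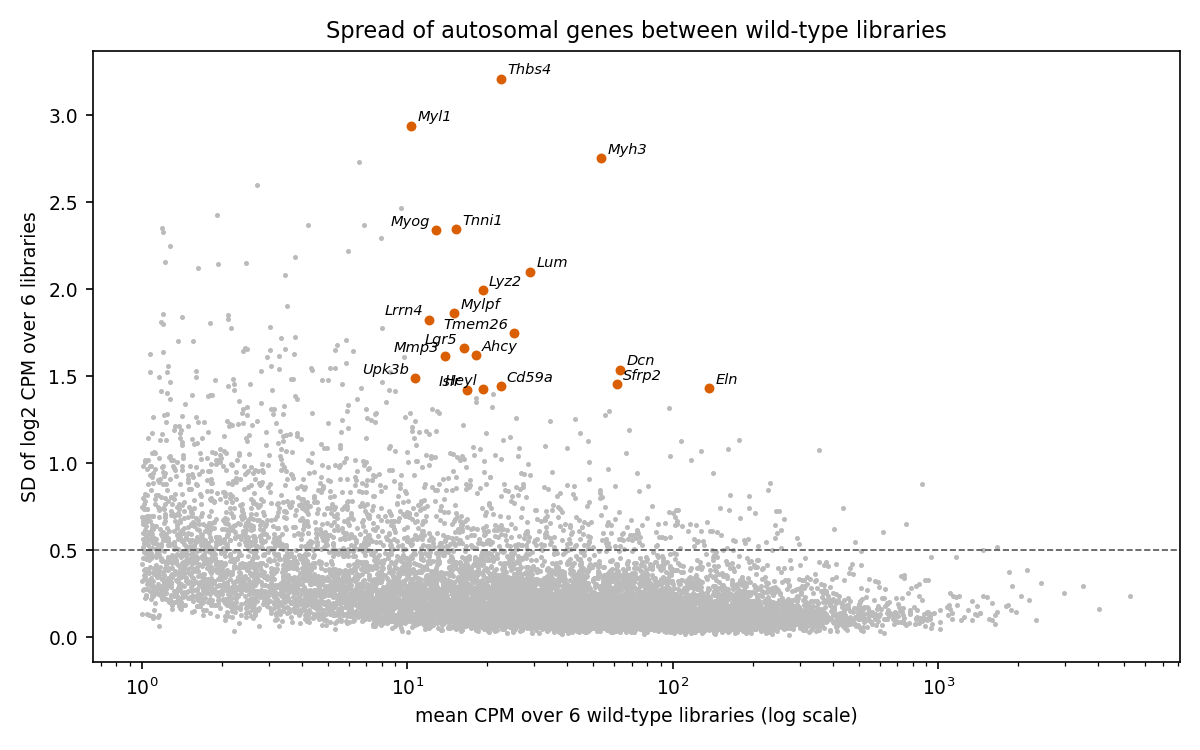
SD of log2 CPM over the 6 wild-type libraries (vertical axis) against mean CPM (horizontal axis, log scale) for 12508 autosomal genes in grey; the dashed line marks the threshold of 0.5. The 20 genes of largest SD at 10 CPM or more are named in orange, from Thbs4 at 3.21 to Islr at 1.42.

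Without Male_WT 3, 19 of the 20 still had an SD above 0.5, all but Mmp3, and 8 were still among the 20 widest. The 6 SIRT7-KO libraries, which took no part in choosing the genes, were then used as other libraries, with SDs taken within the labelled sexes. Whether they share embryos or batches with the wild-type libraries is not stated. All 20 had an SD above 0.5 there, where 4.79% of the 9470 autosomal genes at 10 CPM or more did. That share was not matched to the level of the 20 genes. The within-sex SD in these knockout libraries was 3.86 for Myh3, 3.01 for Thbs4, 1.73 for Lyz2 and 1.77 for Eln, and it was smallest for Islr at 0.54. Over 12392 autosomal genes at a mean of 1 CPM or more in both sets of libraries, 1306 (10.5%) exceeded 0.5 within the sexes of the knockout libraries. Of these, 947 (72.5%) did so within the sexes of the wild-type libraries too, which is 63.6% of the 1489 that did so there. Spearman's rho of the SDs was 0.80, a correlation across genes, which are not independent and share their level and counting error between the sets.

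At the other end, the 5 autosomal genes of smallest SD at 50 CPM or more were Ano6, a phospholipid scramblase, Anapc4, of the anaphase-promoting complex, the copper transporter Slc31a1, Pafah1b1 (LIS1, a dynein regulator) and Thoc5, of the mRNA export complex. Ano6 spanned 269.8 to 278 CPM and Anapc4 141 to 147 CPM, with SDs of log2 CPM of 0.016 and 0.019. They are the smallest of 5096 SDs over 6 libraries each, so their size is set by that choice. In the knockout libraries their within-sex SDs were 0.02 for Thoc5 to 0.08 for Anapc4. The chromosome 8 genes Rwdd4a, Wwc2 and Dctd, named here outside the rule for named genes, were present in all 6 wild-type libraries at 56.02 to 70.8 CPM, 198 to 232 CPM and 36.2 to 45.5 CPM.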

How the data were processed

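RNA of 12 libraries of mouse embryonic fibroblasts was sequenced after polyA selection; 3 libraries each are labelled Female_WT, Male_WT, Female_KO and Male_KO. The values deposited are whole read counts, by gene and library, with no normalization. HISAT2 2.1.0, StringTie 1.3.3, Trimmomatic 0.36, DESeq2 1.32.0, FastQC 0.11.3 and SAMtools 0.1.19 stand in the submitters' processing notes beside the builds GRCm38 and mm10, without a role for each. How the counting treated strand and reads with several matches is not given.

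Counts were scaled by the trimmed mean of M-values over 12 libraries (edgeR 4.0.16, R 4.3.3), and log2 CPM used a prior count of 2. These levels are relative to the library and give no amount of RNA per cell. Exon lengths came from the GENCODE M21 basic annotation (GRCm38), which matched 98.0% of the rows. X- and Y-linked genes were left out of the counts of variable genes, the counts of lowest and highest values and the ranking by SD. List scores kept their X-linked members. No group was tested against another, so no p-value is given. Simulated data were used only to check the calculation of the SD and the use of its threshold. That check does not show how reliably these libraries place a gene above or below the threshold. Replicates were distinct libraries, with chi-square per degree of freedom between 34.2 and 122. Levels were recomputed with library totals and with DESeq2 1.42.0 size factors, with other priors, filters and thresholds, and without each library in turn.

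Genes are named by a rule: the 20 of highest CPM per kilobase, the 5 of highest CPM, the 20 autosomal genes of largest SD at 10 CPM or more, the 5 of smallest SD at 50 CPM or more, and in each list up to 5 of highest level and 4 of largest SD, with fixed landmarks and all Hox genes. The gene lists, 51 in all, and the choice of libraries were made with earlier results of these data known. Promoter sequences are from RefSeq (GRCm38.p6), and the tables were searched by symbol with Python 3.11.15. Those on chromosome 18 were left out of the choice of promoters shown. Some genes that the rule names are not reported here.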

Additional observations from a re-analysis of the deposited data

Results flagged for a closer look

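In groups of 6 libraries, a value was picked out when its gap to the nearest of the others exceeded Dixon's critical value as a share of the whole range. Of 68 sets of 6 values examined, 6 passed, and chance gives about 1 in 20. That rate does not hold for single genes such as Myl1 and Mmp3, which were chosen for their spread over the same 6 libraries. The list scores come from the same 6 libraries too, and the lists were made with earlier results known. The count of 6 is therefore not read against that rate. The score of basement membrane laminins and nidogens was 0.26 in Female_WT 1, with the next library at -0.01. The chondrocyte score was 1.504 in the same library, with the next at -0.06. The other 4 were values of Male_WT 3. Its epithelium score was -1.53 against -0.01 in the nearest library, with 4 of 6 members lowest there and 2, Krt19 and Krt7, highest, and its Hox B score 0.71 against -0.05. The log2 CPM of Myl1 was -3.48 there, from 2 counts, against 2.04, and that of Mmp3 0.17 against 3.29. In Male_WT 3, 428 autosomal genes lay more than 2-fold below their own mean, against 25 to 126 in the other 5 libraries. More than 2-fold above it lay 230 genes in Male_WT 3, 226 in Female_WT 1 and 228 in Male_WT 2, so in that direction it did not stand apart.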

How the results depend on the processing

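The number of variable genes, 1562, was 511 at a mean of 10 CPM or more, 6158 with no filter on low values and 646 with an SD above 0.75; the first and last can only be smaller by their construction, and the second only larger. It was 1597 with library totals, 1563 with DESeq2 size factors, 1585 and 1517 with priors of 0.5 and 5, and 1566 with SDs within the labelled sexes. Leaving out each library in turn gave 1122 to 1669 variable genes, the lowest without Male_WT 3, 12207 to 12340 detected genes, 13.02% to 13.32% of counts in the 100 most abundant genes and 7.27% to 7.56% in matrix genes. Ranking by CPM without length kept 12 of the 20 genes of highest CPM per kilobase, and the length of the longest transcript, an alternative chosen after seeing the data, kept 19. The spread of list scores moved by more than 1.5 times in 26 of 510 recomputed values, 14 of them without Male_WT 3. Of 220 recomputed SDs of named genes 219 stayed above 0.5, and that of Mmp3 was 0.50 without Male_WT 3. No paired analysis was possible because the results come from no test and no groups are compared. Depth limits what can be said near 1 CPM, which is 45.0 counts: genes between 1 and 10 CPM had a median SD of 0.37, and counting error alone gives 0.30 at 1 CPM.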

Other observations

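A search made after values were seen looked for autosomal genes at 10 CPM or more whose 6 libraries lay in 2 sets, each of at least 2 libraries, with a gap of over 1 in log2 CPM and over 2 times the range within either set. It found 4 genes, Ahcy, Sned1, Neb and Ccdc141, and Ahcy had the widest gap. In the SIRT7-KO libraries Ahcy also lay far apart between libraries, with 2.77, 3.803 and 3.57 CPM in Female_KO 1, 2 and 3 and 23.99, 22.98 and 2.92 CPM in Male_KO 1, 2 and 3. Over all 12 libraries 5 held more than 20 CPM and 7 less than 5. Cd59a, on the same chromosome, had 15.4, 29.4 and 32.6 CPM and 7.07, 48.6 and 8.95 CPM in these knockout libraries, so in Male_KO 2 both genes were high, unlike in the wild-type libraries. Sned1, which encodes a secreted matrix protein, was at 34.3 CPM or more in Female_WT 1 and Male_WT 2 and at 9.85 or less in the other 4 libraries, and Neb, the giant protein nebulin of muscle thin filaments, was at 12.2 CPM or more in 4 libraries and at 4.19 or less in Female_WT 2 and Male_WT 3.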
